A study of Homo sapiens with 30 samples.

Results

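FOXP1, ZFPM2, FBXL7 and PGM5 are 4 of the 26364 genes listed by symbol in the count files of 30 A375 libraries. They were chosen by their measured differences in these same data, in which earlier results had shown all 4 raised in parental cells sorted for surface integrin β4 (ITGB4) and raised in cells that had crossed a membrane. Those differences are therefore given below as a description, without a test, and tests are kept for comparisons that the choice did not use. Every library was nevertheless part of the data in which the genes were chosen. The tested comparisons share libraries with the described ones, so the tests are not independent of the choice. All 4 genes were found in every file and all 4 passed the filter on low counts, with 8581 counts of FOXP1, 11990 of ZFPM2, 8030 of FBXL7 and 4242 of PGM5 over the 30 libraries.

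A375 is an established human melanoma line, and all groups are of this line. Polyadenylated RNA was sequenced in 10 groups of 3 libraries, after cells had been divided with an antibody to ITGB4 into a positive and a negative sort and, in 8 groups, put through transwell filters with 5 µm pores. Presorted positive and Presorted negative cells were parental cells of the stated integrin status that then crossed in 5 rounds and in 4 rounds. Bottom10 positive and Bottom10 negative cells had crossed in 10 rounds and Bottom5 negative cells in 5 rounds. Top10 positive and Top10 negative cells had failed to cross in 10 rounds, and Top5 positive cells had failed to cross in 5 rounds. Parental positive and Parental negative cells were sorted from the original population without migration. The labels of the groups give 4, 5 or 10 rounds whereas the text of the series gives 5 rounds, and the group labels were followed. For the Bottom and Top groups the labels list the integrin status apart from the starting population, whereas for the presorted groups it is part of it. Migrated cells were expanded in culture between rounds. By its title the study asks which changes precede migration and which are induced by it. The labels number the libraries as biological replicates but do not say whether cultures were separate, so a p-value reflects only the spread between libraries, which may be technical.

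FOXP1 is a forkhead transcription factor that mostly represses its targets, and it can pair with FOXP2 and FOXP4 and recruit corepressor complexes. ZFPM2, also called FOG2, is a zinc finger protein that binds GATA factors and changes what they do at their targets, and it is best known from development of the heart and gonads. FBXL7 is an F-box protein with leucine-rich repeats, which holds substrates for an SCF ubiquitin ligase; the mitotic kinase AURKA and the survival protein BIRC5 are among its reported substrates. PGM5, also called aciculin, belongs to the phosphoglucomutase family but lacks the enzyme activity, and it sits at adherens junctions and muscle attachment sites, where it binds dystrophin and filamin C. ITGB4, the sorted marker, pairs with integrin α6 as a laminin receptor and anchors hemidesmosomes.

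Start-site windows of 300 bases (250 before to 50 after the start) from RefSeq on GRCh38.p14 matched 2 of the 4 genes, with 6 windows for FOXP1 and 2 for FBXL7. The counts were made on hg19, so these coordinates belong to the sequence table and not to the counts. The outermost window of each gene is shown because the 2 genes moved together across the groups and so can be read side by side. FOXP1 is at chr3:71583679-71583978 on the minus strand and FBXL7 at chr5:15499930-15500229 on the plus strand, and capitals mark the letters of the motifs searched.
FOXP1: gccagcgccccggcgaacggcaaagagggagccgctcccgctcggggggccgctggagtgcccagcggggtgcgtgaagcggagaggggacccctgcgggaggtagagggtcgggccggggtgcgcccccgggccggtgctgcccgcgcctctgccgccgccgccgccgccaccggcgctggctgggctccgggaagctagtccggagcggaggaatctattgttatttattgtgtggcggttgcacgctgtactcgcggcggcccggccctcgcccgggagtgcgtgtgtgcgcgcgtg
FBXL7: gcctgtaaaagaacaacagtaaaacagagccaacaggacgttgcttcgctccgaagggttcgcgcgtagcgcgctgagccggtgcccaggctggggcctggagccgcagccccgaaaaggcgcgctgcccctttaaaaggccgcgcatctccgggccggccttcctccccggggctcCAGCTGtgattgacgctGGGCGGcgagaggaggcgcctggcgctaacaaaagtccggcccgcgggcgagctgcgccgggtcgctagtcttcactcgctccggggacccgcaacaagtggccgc
The FOXP1 window is 75% G and C with 41 CpG, and the FBXL7 window is 67.7% with 34 CpG, against medians of 58.7% and 14 CpG over 35116 windows. Both strands were searched for 9 strings: TGANTCA for AP-1, GGAATG for TEAD factors, CACGTG and CAGCTG for E-box factors, TGTTTAC for forkhead factors, AGATAA for GATA factors, ACAATGG for SOX factors, TATAAA for a start-site box and GGGCGG for SP factors. None of them was found in the FOXP1 window. The FBXL7 window held CAGCTG, which 17.9% of all windows hold, and GGGCGG, which 45.0% hold. The 2 windows shown had no searched string in common, but other windows of the genes did: GGGCGG was in 2 further FOXP1 windows, and GGAATG was in 1 further FOXP1 window and in the other FBXL7 window. For the other strings the share of all windows was 7.71% for TGANTCA, 14.03% for GGAATG, 7.26% for CACGTG, 3.42% for TGTTTAC, 10.3% for AGATAA, 3.16% for ACAATGG and 11.53% for TATAAA. A match is a run of letters, and no binding was measured.

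The libraries held 14258919 to 29134945 gene counts, and 15381 genes were tested. Levels are given as counts-per-million (CPM), with library sizes scaled by trimmed mean of M values (TMM). Melanoma markers were present in every library, with SOX10 at 287 to 1460 CPM, MITF at 23.2 to 66.3 CPM and PRAME at 114 to 216 CPM, whereas the pigment gene TYR was at 0 in 28 libraries and PMEL did not exceed 1.68 CPM. The summed CPM of 10 melanoma markers was 844 to 4961, of 6 keratinocyte markers 65.4 to 220, of 5 immune markers 22.7 to 155, of 5 fibroblast markers 7.28 to 30.7 and of 4 endothelial markers 3.81 to 22.8. Among the higher genes of the last 4 lists were KRT10 (62.9 to 187 CPM) and KRT14 (0.227 to 39.95 CPM), CD68 (22.5 to 155 CPM), COL1A1 (1.53 to 17.7 CPM), KDR (2.32 to 21.6 CPM) and TIE1 (0.240 to 13.4 CPM), whereas CD3E was at 0 in all 30 libraries and PTPRC did not exceed 0.160 CPM, PECAM1 0.309 CPM and KRT1 0.116 CPM. The second principal component, which held 21.18% of the variance, set 6 libraries apart with a score above 30: Top10 negative replicate 1, Bottom10 positive replicate 3, Presorted negative replicate 2, Bottom5 negative replicate 2 and Top5 positive replicates 1 and 3. With them left out, 24 libraries remained and 1 in the Top5 positive group, and results that changed are given with the limits at the end.

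ITGB4 transcript did not separate the positive from the negative libraries in every sort. It was at 168, 96.7 and 35.2 CPM in Parental positive libraries, against 24.6, 33.7 and 25.1 CPM in Parental negative libraries, which did not overlap. Presorted positive libraries had 366, 114 and 103 CPM, against 322, 27.2 and 56.4 CPM in Presorted negative libraries, a log2 fold change of 0.52 ± 0.84 with overlapping ranges. The library labelled Presorted negative replicate 1 thus held more ITGB4 than any Parental positive library, and comparisons that use it are also given without it. The Top10 and Bottom10 sorts overlapped too, with log2 fold changes of 1.97 ± 0.88 and 1.41 ± 0.85. Between libraries of the same replicate number, however, the positive one held more ITGB4 throughout. This held in the parental, Top10, Bottom10 and presorted sorts, though the labels state no pairing.

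FOXP1 transcript was high in the 5 groups that had crossed and in Parental positive cells, intermediate in Parental negative cells and low in cells that had failed to cross. It stood at 29.5, 26.2 and 24.4 CPM in Presorted positive libraries, against 27.1, 33.1 and 16.5 CPM in Presorted negative libraries. Bottom10 positive libraries held 16.6, 24.1 and 12.04 CPM, against 12.6, 17.97 and 10.4 CPM in Bottom10 negative libraries, and Bottom5 negative libraries held 26.8, 26.98 and 23.5 CPM. The positive and negative sorts of crossed cells thus overlapped at both stages. FOXP1 was at 2.45, 2.71 and 1.52 CPM in Top10 positive libraries, against 1.13, 0.953 and 1.27 CPM in Top10 negative libraries, and Top5 positive libraries held 5.13, 3.02 and 2.15 CPM. Parental positive libraries held 22.2, 19.1 and 16.3 CPM, against 5.73, 3.44 and 4.45 CPM in Parental negative libraries. The lowest of the 18 crossed and Parental positive libraries had 10.4 CPM and the highest of the 9 Top libraries 5.13 CPM, so these did not overlap. Among neighbours in the order of group means, only Bottom10 negative with Parental negative, and Top10 positive with Top10 negative, had separate ranges; Parental negative overlapped Top5 positive.

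ZFPM2 gave the same arrangement with the smallest relative spread among replicates of the 4 genes (pooled SD 0.26 on the log2 CPM scale, against 0.38 for FOXP1, 0.34 for FBXL7 and 0.62 for PGM5). It was at 39.6, 32.9 and 31.9 CPM in Presorted positive libraries, against 40.2, 20.8 and 33.9 CPM in Presorted negative libraries. Bottom10 positive libraries had 28.1, 23.9 and 17.7 CPM, against 20.1, 22.7 and 19.7 CPM in Bottom10 negative libraries, and Bottom5 negative libraries had 28.2, 28.4 and 35.8 CPM. No crossed library fell below 17.7 CPM. In cells that had failed to cross, ZFPM2 was at 5.46, 5.56 and 4.97 CPM in Top10 positive libraries, against 3.599, 4.13 and 3.16 CPM in Top10 negative libraries, and at 4.97, 8.70 and 6.72 CPM in Top5 positive libraries. Parental positive libraries had 29.3, 24.3 and 23.7 CPM, against 7.31, 7.83 and 9.07 CPM in Parental negative libraries. ZFPM2 in Top5 positive libraries overlapped Parental negative libraries, while both Top10 groups lay below them.

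FBXL7 was measured at 25.1, 26.7 and 18.1 CPM in Presorted positive libraries, against 23.5, 14.5 and 17.2 CPM in Presorted negative libraries. Bottom10 positive libraries had 19.7, 17.5 and 11.97 CPM, against 15.04, 15.98 and 16.03 CPM in Bottom10 negative libraries, and Bottom5 negative libraries had 26.2, 13.2 and 15.95 CPM. The lowest of these crossed libraries had 11.97 CPM. Cells that had failed to cross had 5.76, 3.61 and 4.28 CPM in the Top10 positive sort, against 1.52, 1.68 and 1.83 CPM in the Top10 negative sort, and 3.93, 3.95 and 2.42 CPM in the Top5 positive sort. FBXL7 was at 20.5, 14.9 and 26.6 CPM in Parental positive libraries, against 5.20, 5.98 and 4.28 CPM in Parental negative libraries. For FBXL7 the Top10 positive libraries overlapped the Parental negative ones, which they did not for FOXP1, ZFPM2 or PGM5.

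PGM5 had the widest span, and in Top10 negative cells it was close to undetected. It was at 20.05, 7.92 and 7.88 CPM in Presorted positive libraries, against 23.4, 6.42 and 6.78 CPM in Presorted negative libraries. Bottom10 positive libraries had 13.6, 17.1 and 7.32 CPM, against 3.22, 5.90 and 3.25 CPM in Bottom10 negative libraries, and Bottom5 negative libraries had 8.78, 9.27 and 7.63 CPM. One library in each presorted group, replicate 1, was far above the others. Counts of 6, 7 and 6 gave 0.258, 0.351 and 0.295 CPM in Top10 positive libraries, against counts of 1, 0 and 1 in Top10 negative libraries. Top5 positive libraries had 0.160, 0.864 and 0.672 CPM. PGM5 was at 16.1, 15.5 and 9.21 CPM in Parental positive libraries, against 1.403, 2.38 and 2.42 CPM in Parental negative libraries. PGM5 had Bottom5 negative above Bottom10 negative, and Parental negative above Top5 positive, with no overlap in either pair.

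**Figure D1:**
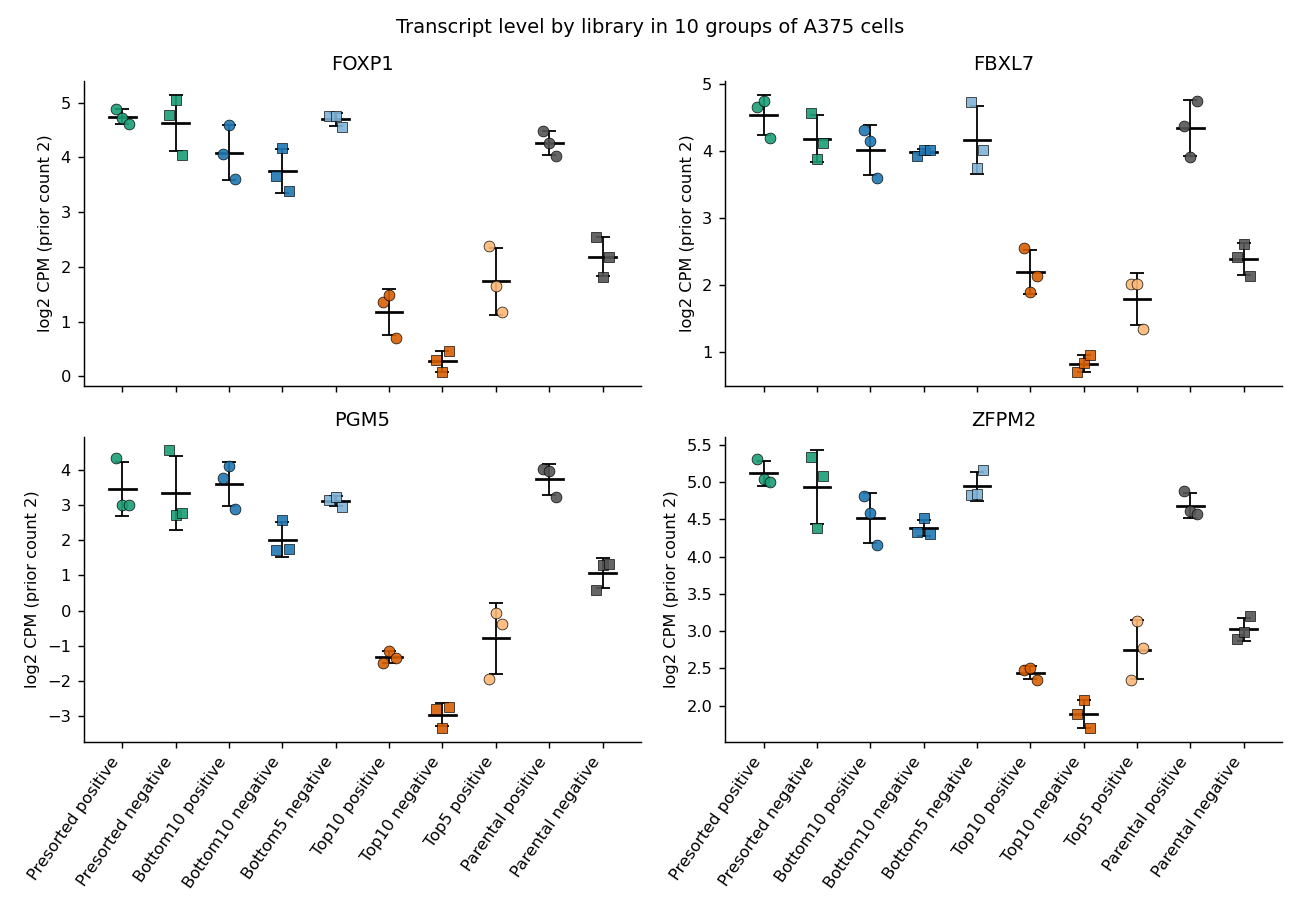
Level of each gene (vertical axis, log2 CPM with a prior count of 2) in the 30 libraries, in 10 groups of 3 along the horizontal axis; circles are positive and squares negative sorts, bars are the mean and SD over n = 3. The crossed groups and Parental positive cells sit high, the Top groups sit low and Parental negative cells lie between or beside the Top groups.

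In the comparisons that chose the genes, the differences were several-fold. Parental positive over Parental negative gave a log2 fold change of 2.08 ± 0.32 (SE of the fit) for FOXP1, 1.67 ± 0.23 for ZFPM2, 2.00 ± 0.28 for FBXL7 and 2.71 ± 0.51 for PGM5. All 4 ranges were separate there, where 4.47% of all genes were higher without overlap, and the test called 0.0585% of genes, 9 in all. Just outside the 9 called genes stood SPANXB1, with a log2 fold change of 3.32, and ARNTL2, with 0.81. Bottom10 over Top10 gave 3.61 ± 0.35 for FOXP1 in the negative sort and 2.98 ± 0.33 in the positive one, and 2.52 ± 0.23 and 2.12 ± 0.23 for ZFPM2. For FBXL7 it was 3.22 ± 0.30 and 1.85 ± 0.28. All 4 genes had separate ranges in both, where 8.68% of genes were higher without overlap in the negative sort and 7.61% in the positive one, and the test called 1.33% and 0.943% of genes. Since the genes were chosen for these differences, nothing is read from the counts. In bulk RNA, fewer cells holding a transcript and less of it per cell cannot be told apart.

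PGM5 needs counts rather than a fitted fold in the Top10 groups. Summed over 3 libraries, 310 counts in Bottom10 negative against 2 in Top10 negative gave a ratio of 141 after scaling to depth (95% counting interval 38.8 to 1173). In the positive sort, 689 counts in Bottom10 against 19 in Top10 gave 44.1 (28.0 to 73.7). Beside their own parental sort, Top10 negative had 2 counts to 112, a ratio of 0.0148 (0.00177 to 0.0548), and Top10 positive had 19 counts to 952, a ratio of 0.0223 (0.0133 to 0.0349). These intervals cover counting error only.

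Crossed cells stood well above parental cells in the negative sort and near them in the positive sort. In the negative sort, crossed cells were above Parental negative cells for all 4 genes. The log2 fold change of Bottom10 negative was 1.59 for FOXP1, 1.37 for ZFPM2, 1.604 for FBXL7 and 0.998 for PGM5, and that of Bottom5 negative 2.51, 1.93, 1.84 and 2.04 in the same gene order. Presorted negative over Parental negative gave 2.49 for FOXP1, 1.97 for ZFPM2, 1.84 for FBXL7 and 2.56 for PGM5, and without the library labelled Presorted negative replicate 1 it gave 2.45, 1.76, 1.62 and 1.67. All 12 of these pairs had separate ranges, against 9.03%, 7.15% and 9.45% of all genes that were higher without overlap. In the positive sort, crossed cells were close to Parental positive cells: Bottom10 positive gave -0.13 for FOXP1, -0.15 for ZFPM2, -0.33 for FBXL7 and -0.10 for PGM5, with every range overlapping (10.4% of genes were higher and 9.08% lower without overlap). Presorted positive over Parental positive gave 0.48 for FOXP1, 0.44 for ZFPM2, 0.17 for FBXL7 and -0.18 for PGM5, and FOXP1 and ZFPM2 were higher without overlap there (7.12% of genes). These comparisons share the parental libraries.

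Cells that had failed to cross were below parental cells of the same sort. Against Parental negative cells the positive Top groups overlapped for some genes, as given above. Top10 negative over Parental negative gave -2.02 for FOXP1, -1.15 for ZFPM2 and -1.62 for FBXL7, and 4 of 4 genes were lower without overlap, as were 5.4% of all genes. Top10 positive over Parental positive gave -3.10 for FOXP1, -2.27 for ZFPM2 and -2.18 for FBXL7, again 4 of 4 without overlap (8.64% of genes). After 5 rounds, Top5 positive over Parental positive gave -2.49 for FOXP1, -1.92 for ZFPM2, -2.59 for FBXL7 and -4.53 for PGM5, 4 of 4 without overlap (9.61% of genes). Top10 positive and Top5 positive libraries overlapped for all 4 genes (11.5% of all genes were higher and 9.94% lower without overlap), at log2 fold changes of -0.62 for FOXP1, -0.35 for ZFPM2, 0.41 for FBXL7 and -0.94 for PGM5.

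**Figure D2:**
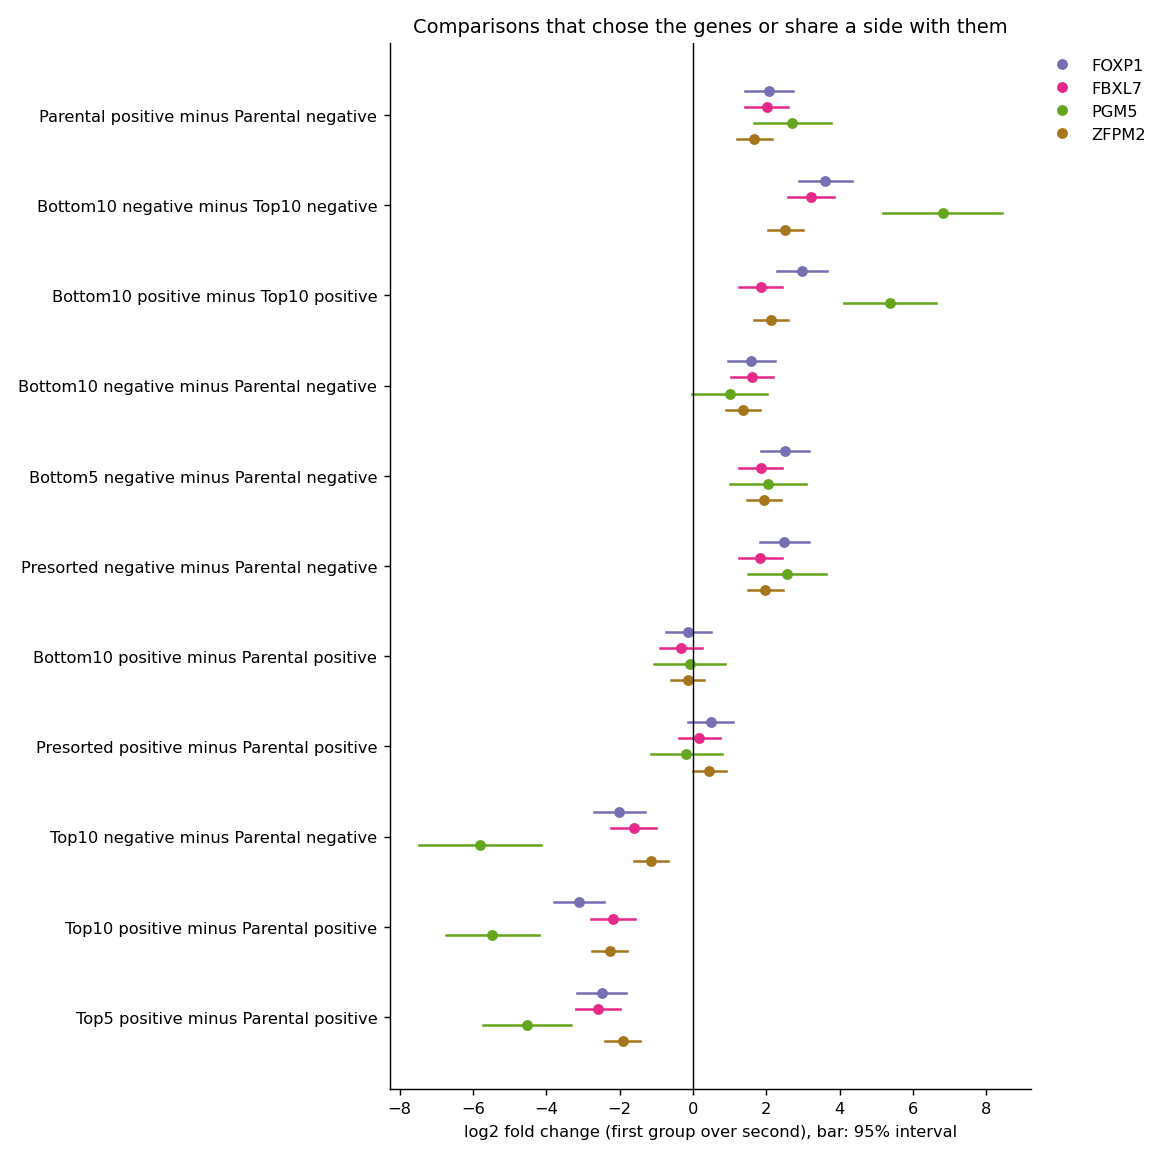
Log2 fold change of the first group over the second (horizontal axis) for the 4 genes in 11 comparisons that chose them or share a group with those; points are edgeR estimates and bars their 95% intervals, shown without a test. Crossed negative cells lie right of 0 against Parental negative cells, crossed positive cells lie around 0 against Parental positive cells, and Top cells lie left of 0.

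Whether the sort still divided the genes once cells had crossed, or had failed to, was not part of the choice, though the libraries were. It was tested over all 15381 genes (edgeR quasi-likelihood, Benjamini-Hochberg adjusted). None of the 24 differences tested, 4 genes in 6 comparisons, passed an adjusted p of 0.05 in the main fit, which used no replicate block. Among cells that had failed to cross, all 4 genes were higher in the Top10 positive than in every Top10 negative library, as were 2.96% of all genes, while the test called 0.013% of genes. The log2 fold change was 1.44 ± 0.29 for FBXL7 (edgeR unadjusted p = 5.54e-05, adjusted p = 0.213), 0.99 ± 0.34 for FOXP1 and 0.55 ± 0.23 for ZFPM2 (edgeR adjusted p = 1 for both). FBXL7 averaged 4.55 ± 1.10 CPM in Top10 positive cells and 1.68 ± 0.158 CPM in Top10 negative cells (SD, n = 3 each). For PGM5, 19 counts in Top10 positive against 2 in Top10 negative gave a ratio of 9.68 (95% counting interval 2.33 to 85.7), and the fit gave an adjusted p of 1. With replicate number as a block in the Top10 and Bottom10 groups the FBXL7 difference passed, at 1.44 ± 0.23 (edgeR adjusted p = 0.0465), but not with the block in all 10 groups (adjusted p = 0.195), and in the Top10 and Bottom10 groups without replicate number 1, 2 or 3 that p was 0.530, 0.886 and 0.0510. DESeq2 without a block also called it (adjusted p = 0.0141).

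In cells that had crossed in 10 rounds PGM5 was the one gene of the 4 with separate ranges. PGM5 averaged 12.7 ± 4.97 CPM in Bottom10 positive cells and 4.12 ± 1.54 CPM in Bottom10 negative cells (SD, n = 3 each), a log2 fold change of 1.61 ± 0.49 (edgeR unadjusted p = 0.00292, adjusted p = 1.00). Of all genes 5.48% were higher there without overlap, and the test called 0.0% of genes, with 549 at an unadjusted p under 0.05 and 8 called by DESeq2. With the replicate block in the Top10 and Bottom10 groups PGM5 was at 1.602 ± 0.23 (edgeR adjusted p = 0.0183), against an adjusted p of 0.858 with the block in all 10 groups, and in the Top10 and Bottom10 groups without replicate number 1, 2 or 3 that p was 0.135, 0.722 and 0.0410. The other 3 overlapped, with log2 fold changes of 0.36 ± 0.30 for FOXP1, 0.16 ± 0.22 for ZFPM2 and 0.07 ± 0.27 for FBXL7 (edgeR adjusted p = 1.00 for each). The 95% interval was -0.26 to 0.99 for FOXP1, -0.29 to 0.61 for ZFPM2 and -0.50 to 0.63 for FBXL7.

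Cells sorted first and then taken through the filter had no separate ranges for any of the 4 genes, where 2.07% of all genes were higher and 3.29% lower without overlap. The log2 fold change of Presorted positive over Presorted negative was 0.06 ± 0.30 for FOXP1, 0.14 ± 0.22 for ZFPM2, 0.34 ± 0.27 for FBXL7 and -0.03 ± 0.47 for PGM5 (edgeR adjusted p of 0.999 or more). The test called 0.0% of genes, with 565 at an unadjusted p under 0.05 and 0 called by DESeq2. The 95% intervals were -0.55 to 0.68 for FOXP1, -0.31 to 0.59 for ZFPM2, -0.22 to 0.90 for FBXL7 and -1.003 to 0.94 for PGM5. Without the library labelled Presorted negative replicate 1 the differences were 0.11 for FOXP1, 0.35 for ZFPM2, 0.55 for FBXL7 and 0.86 for PGM5 (edgeR adjusted p = 0.923, 0.619, 0.538 and 0.539). That fit keeps Presorted positive replicate 1, which was also high in ITGB4 and PGM5. With a replicate block in the presorted groups and all their libraries, PGM5 was at 0.14. These 2 groups differed by 1 round as well as by the sort. A further comparison, between the Top10 and Bottom10 sorts, was chosen after the values were seen. The sort difference of FBXL7 was larger in Top10 cells by 1.37 ± 0.40 on the log2 scale. Those of FOXP1, ZFPM2 and PGM5 were larger by 0.63 ± 0.45, 0.39 ± 0.32 and 1.43 ± 1.05. Each of these values equals the Bottom10 over Top10 change of negative cells less that of positive cells. Since the genes were chosen for those changes, the values are a description, without a test, and nothing is concluded from them.

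No gain with further rounds of crossing was detected, and most estimates were below 0. Bottom10 negative over Bottom5 negative gave a log2 fold change of -0.92 ± 0.30 for FOXP1 (edgeR adjusted p = 0.408), -0.57 ± 0.22 for ZFPM2 (0.556), -0.23 ± 0.27 for FBXL7 (0.871) and -1.05 ± 0.48 for PGM5 (0.681). FOXP1, ZFPM2 and PGM5 were lower without overlap after 10 rounds, as were 6.48% of all genes, and the test called 0.117% of genes. Against Presorted negative cells, which had crossed in 4 rounds, Bottom10 negative cells gave -0.90 ± 0.30 for FOXP1, -0.60 ± 0.22 for ZFPM2, -0.23 ± 0.27 for FBXL7 and -1.56 ± 0.49 for PGM5 (edgeR adjusted p = 0.315, 0.331, 0.714 and 0.279). Without the library labelled Presorted negative replicate 1 these were -0.86, -0.39, -0.02 and -0.67 (edgeR adjusted p = 0.149, 0.309, 0.982 and 0.383). With all libraries only PGM5 was lower without overlap there (6.53% of genes; the test called 0.182%). Bottom10 positive over Presorted positive gave -0.60 ± 0.30 for FOXP1, -0.58 ± 0.22 for ZFPM2, -0.51 ± 0.27 for FBXL7 and 0.08 ± 0.47 for PGM5 (edgeR adjusted p = 0.584, 0.397, 0.626 and 0.985). FOXP1 and ZFPM2 were lower without overlap (8.12% of genes; the test called 0.208%). The last 2 comparisons differ in rounds and in whether the sort came first, and the 3 comparisons share libraries.

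**Figure D3:**
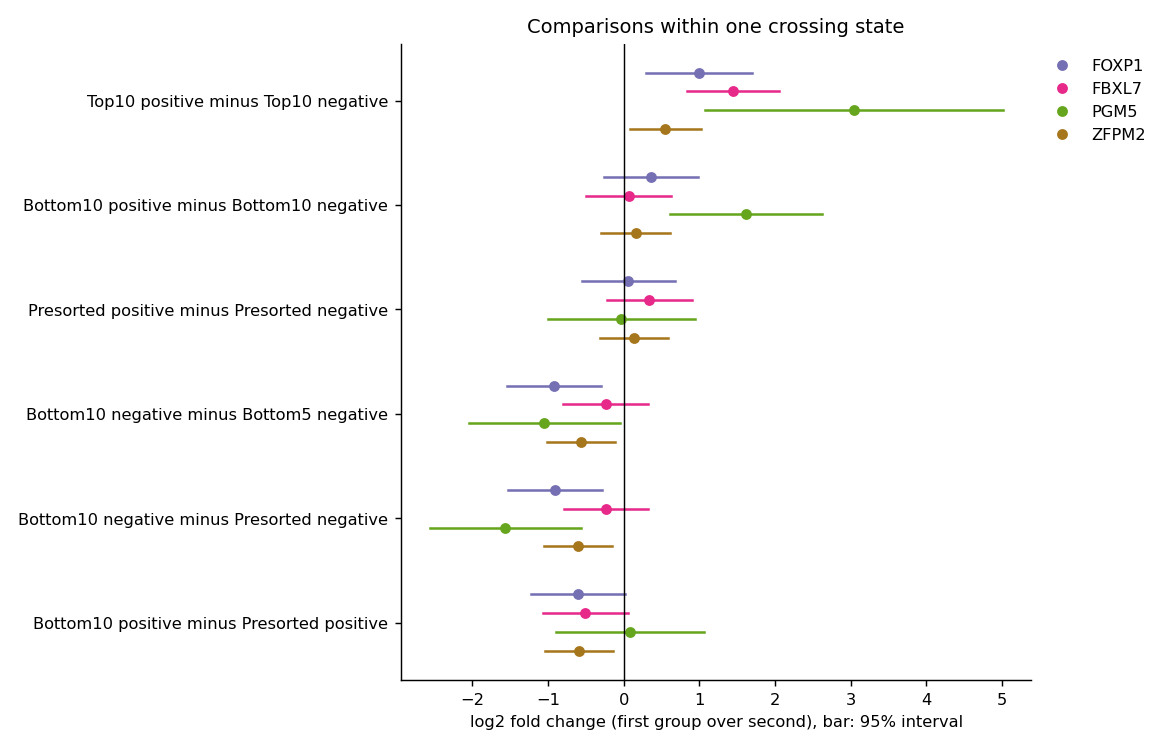
Log2 fold change of the first group over the second (horizontal axis) for the 4 genes in the 6 comparisons tested. The choice did not use these comparisons, but their libraries were part of the data in which the genes were chosen. Points are edgeR estimates and bars their 95% intervals, before adjustment over genes. None passed an adjusted p of 0.05 in this fit, which used no replicate block. FBXL7 at 1.44 in the Top10 sort and PGM5 at 1.61 in the Bottom10 sort lie furthest from 0 relative to their errors.

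Across the 30 libraries the 4 genes followed each other closely, as the choice would have it. Pearson correlations of log2 CPM were 0.93 to 0.96 over the 6 pairs, a description of points that share groups, cultures and sequencing. Group means carried 96.2% of the variance of FOXP1, 96.6% of ZFPM2, 95.4% of FBXL7 and 95.3% of PGM5, whereas the median gene had 35.7%. Once group means were taken away, the pairs parted. PGM5 and ZFPM2 still deviated together (r = 0.69), as did each with ITGB4 (0.70 for PGM5 and 0.67 for ZFPM2), while FOXP1 with ZFPM2 gave -0.13 and FOXP1 with PGM5 0.09. Between these lay FBXL7, with 0.26 for ZFPM2, 0.21 for FOXP1 and 0.14 for PGM5. FOXP1 and FBXL7 gave 0.36 and 0.34 with ITGB4. Same-numbered libraries of several groups deviated together over all genes, so the 30 deviations are not independent and these values are a description. Replicate 1 of Presorted negative and of Presorted positive lay far out, with deviations of 2.02 and 1.17 for ITGB4 and 1.21 and 0.89 for PGM5. The correlations of deviations are given with all 30 libraries only. In Presorted negative libraries ITGB4 was at 322, 27.2 and 56.4 CPM in replicates 1, 2 and 3, beside 23.4, 6.42 and 6.78 CPM of PGM5, 40.2, 20.8 and 33.9 CPM of ZFPM2, 23.5, 14.5 and 17.2 CPM of FBXL7 and 27.1, 33.1 and 16.5 CPM of FOXP1. The library with most ITGB4 had most PGM5, ZFPM2 and FBXL7, but not most FOXP1.

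**Figure D4:**
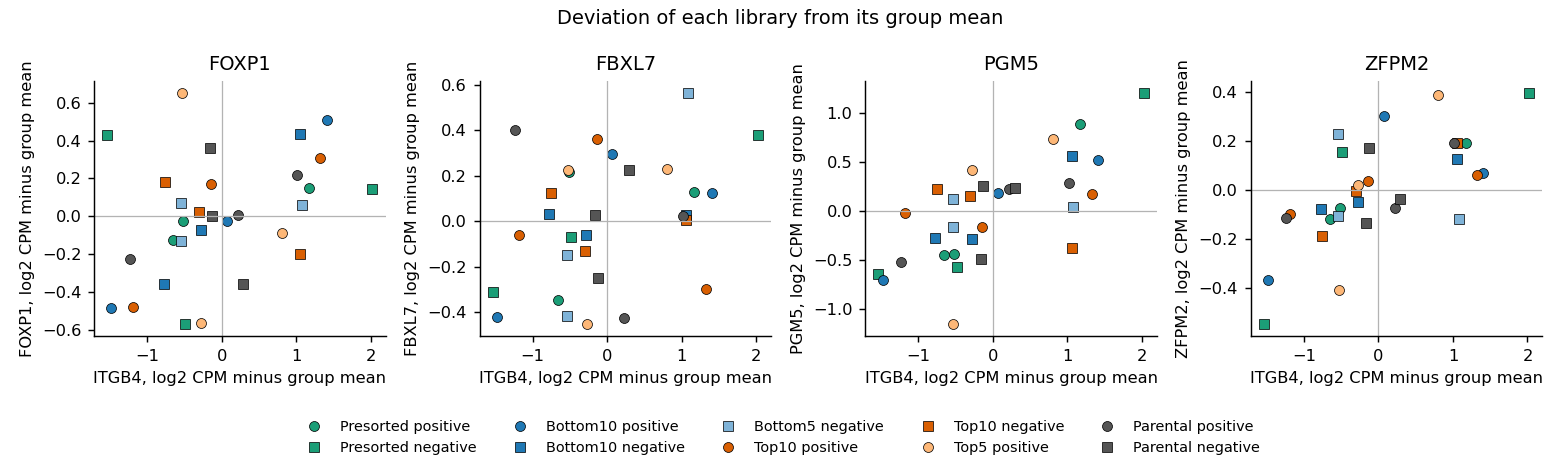
Deviation of each library from its group mean (log2 CPM) for each gene on the vertical axis against that of ITGB4 on the horizontal axis; each point is 1 of 30 libraries, circles positive and squares negative sorts. The correlation with ITGB4 was 0.70 for PGM5 and 0.67 for ZFPM2, against 0.36 for FOXP1 and 0.34 for FBXL7. Same-numbered libraries of several groups deviated together, so the points are not independent.

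Each of the 4 had the other 3 among the 5 tested genes with the highest correlation over libraries. Beyond them, FOXP1 was most like FAM155A (r = 0.93) and ADRBK2 (0.92), FBXL7 most like FAM155A (0.92) and LAMA1 (0.92), PGM5 most like SH3GL2 (0.94) and S1PR1 (0.93), and ZFPM2 most like CT55 (0.95) and SGMS2 (0.94). FAM155A averaged 22.9 ± 4.28 CPM in Presorted positive, 18.3 ± 6.09 in Bottom10 positive, 6.62 ± 2.37 in Top10 positive, 16.7 ± 2.59 in Parental positive and 5.60 ± 1.83 CPM in Parental negative libraries. The order depends on the measure: by Spearman rank the 3 partners of FOXP1 stood at place 6 for ZFPM2, 13 for PGM5 and 54 for FBXL7, and without the 6 libraries apart, by Pearson, at 1, 4 and 3. EYA1, a developmental transcription cofactor, ran opposite to FOXP1 (r = -0.92), ZFPM2 (-0.93) and PGM5 (-0.88). The other genes with the lowest correlation were SCARA5 (-0.91) and GNAS (-0.90) for FOXP1, TESC (-0.93) and TRIM51 (-0.92) for ZFPM2, HSD17B3 (-0.89), TRIM51 (-0.87) and BARX1 (-0.86) for FBXL7, and GNAS (-0.87) and TRIM51 (-0.86) for PGM5. Within groups the closest were CNTNAP2 (0.81), KCNMB2-AS1 (0.81) and HERPUD2 (0.81) for FOXP1, SSH1 (0.88), RNF157 (0.88) and HIVEP2 (0.87) for FBXL7, PDGFB (0.83), VAT1 (0.82) and NALCN (0.82) for PGM5, and PRKCA (0.93), EHD2 (0.92) and LOXL2 (0.89) for ZFPM2. No gene was named for more than 1 member in these within-group lists.

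PGM5 has a transcribed pseudogene, PGM5P2, which moved with it. The longest coding transcript, PGM5-202, aligned with PGM5P2-201 over 1213 bases, 1045 of them coding, with 17 mismatches, an identity of 98.6% (GENCODE 29 transcripts). Runs of 100 bases identical in both made up 9.02% of such runs in PGM5-202 and 20.7% of those in PGM5P2 transcripts. A stretch of 60 bases on chromosome 9 that holds 5 of the 17 mismatches, in capitals, shows where the copies can be told apart. It covers coding positions 634 to 693 of PGM5-202 and transcript positions 803 to 862 of PGM5P2-201.
PGM5: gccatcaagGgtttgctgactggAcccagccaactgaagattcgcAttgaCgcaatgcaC
PGM5P2: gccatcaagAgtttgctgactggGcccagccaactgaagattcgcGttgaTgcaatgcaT
A read inside identical sequence fits both places, and 7.80 to 13.3% of reads per library were set aside by the authors' counting for matching more than 1 place. PGM5P2 had 1688 counts over the 30 libraries, 28.5% of the 2 genes together. It was at 9.62, 5.76 and 7.31 CPM in Presorted positive libraries, against 4.14, 1.30 and 6.59 CPM in Presorted negative libraries. Top10 positive libraries had 0.129, 0.651 and 0.984 CPM, against 0.130, 0.182 and 0.356 CPM in Top10 negative libraries. Parental positive libraries had 5.31, 3.87 and 1.72 CPM, against 1.05, 1.59 and 3.10 CPM in Parental negative libraries. PGM5P2 followed PGM5 over libraries (r = 0.87 of log2 CPM with 0.1 added), but its parental sorts overlapped where those of PGM5 did not. The log2 fold change of PGM5P2 was 3.01 ± 0.78 for Bottom10 negative over Top10 negative (edgeR adjusted p = 0.0531, called by DESeq2), 2.09 ± 0.71 for Bottom10 positive over Top10 positive (0.245) and 0.92 ± 0.65 for Parental positive over Parental negative (1). How many reads of either gene came from the other was not tested, and the level of PGM5 is uncertain to that extent. The antisense gene PGM5-AS1 had 87 counts in all and was not tested. PGM1, the enzyme that makes up the main phosphoglucomutase activity of most cells, shared no run of 50 bases with PGM5-202 and did not follow it (r = 0.05).

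ZFPM2-AS1, which runs antisense at the ZFPM2 locus, ran against ZFPM2 (r = -0.71). It averaged 3.93 ± 1.26 CPM in Bottom10 positive and 7.05 ± 1.66 CPM in Top10 positive libraries, and 3.22 ± 0.727 CPM in Parental positive against 5.92 ± 1.32 CPM in Parental negative libraries (SD, n = 3 each). Its log2 fold changes were -0.72 ± 0.40 for Bottom10 negative over Top10 negative, -0.84 ± 0.40 for Bottom10 positive over Top10 positive and -0.87 ± 0.40 for Parental positive over Parental negative, and none passed (edgeR adjusted p = 0.677, 0.548 and 1). The strand setting of the counting was not given in the sources used here, so reads of a gene and its antisense partner may not have been told apart. FOXP1-AS1 had 1 count in all 30 libraries.

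FOXP1 lies on chromosome 3, FBXL7 on 5, ZFPM2 on 8 and PGM5 on 9. Of 24 tested neighbours, 3 on either side of each gene in a RefSeq order, edgeR called 0 in the parental sort or in either crossing comparison (0.0585%, 1.33% and 0.943% of all genes were called), with 14 of 72 values (19.4%) at an unadjusted p under 0.05, against 7.5% over all genes. DESeq2 called 3, BASP1, EIF4E3 and FRMD4B, each in the crossing comparison of the positive sort. Median log2 fold changes of the 24 were -0.06, 0.0075 and -0.17. EIF4E3, a cap-binding protein gene beside FOXP1, had the highest correlation of the 24 with its neighbour (r = 0.89). It averaged 1.74 ± 0.793 CPM in Bottom10 positive and 0.427 ± 0.109 CPM in Top10 positive libraries, and 2.67 ± 0.912 CPM in Parental positive against 0.689 ± 0.183 CPM in Parental negative libraries (SD, n = 3 each). The log2 fold changes of EIF4E3 were 1.95 for the parental sort, 1.95 for crossing in the negative and 2.03 for crossing in the positive sort (edgeR adjusted p = 0.305, 0.152 and 0.119). BASP1, the third neighbour of FBXL7, gave 1.68, 1.58 and 2.06 in the same comparisons (edgeR adjusted p = 0.527, 0.259 and 0.106). MITF, next to FOXP1 on its other side, gave r = -0.10. FRMD4B, the neighbour beyond MITF, ran against FOXP1 (r = -0.59). Its log2 fold changes in the same comparisons were -0.90, -0.02 and -0.96 (edgeR adjusted p = 0.423, 0.999 and 0.143).

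**Figure D5:**
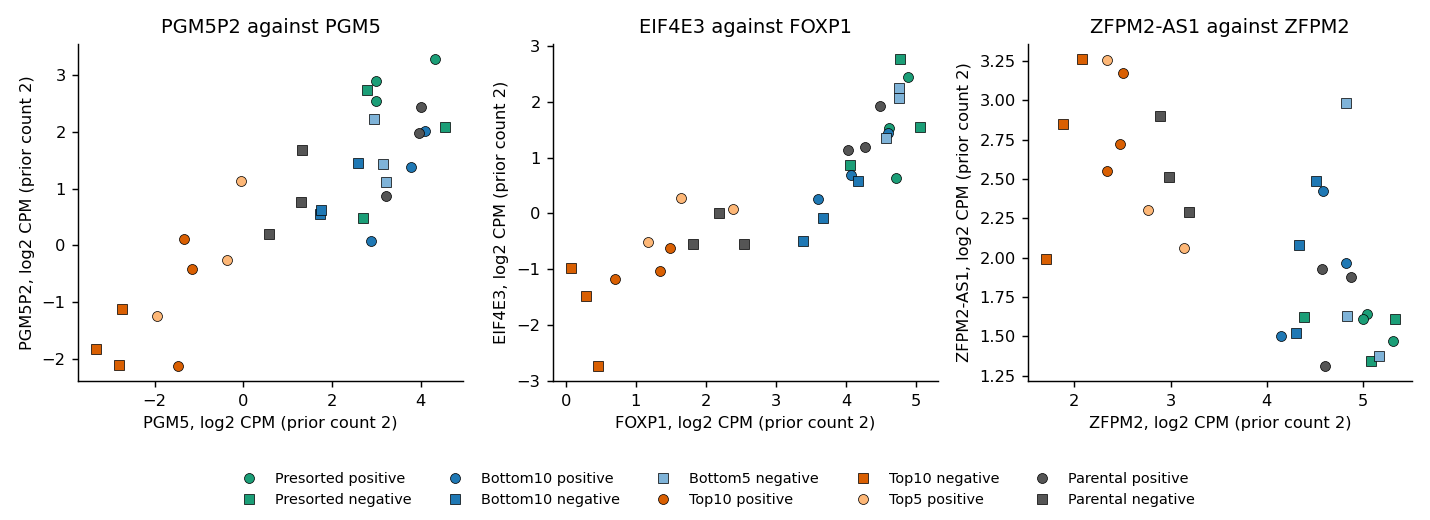
Level of PGM5P2 against PGM5, EIF4E3 against FOXP1 and ZFPM2-AS1 against ZFPM2 (both axes log2 CPM with a prior count of 2); each point is 1 of 30 libraries, circles positive and squares negative sorts. The first 2 pairs rise together over the groups and the third runs the other way (r = -0.71).

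Among genes of the same families as the 4, or known to work with them, edgeR called 1 in 6 comparisons, a forkhead family gene. The 6 comparisons were the parental sort, crossing in each sort, and the Top10, Bottom10 and presorted sorts. Medians below are log2 fold changes in the first 3 of these, where the medians of all genes were -0.01, -0.01 and 0.03. Over the 6 comparisons in that order, edgeR called 0.0585%, 1.33%, 0.943%, 0.013%, 0.0% and 0.0% of all genes. At such shares, 0 calls in a list of 4 to 25 genes say little about that list. Over all genes 5.24% of values in the 6 comparisons had an unadjusted p under 0.05. For FOXP family members and corepressor subunits, all 20 tested, there were 0 calls by edgeR, 1 of 120 values (0.833%) at an unadjusted p under 0.05 and 0 calls by DESeq2, and medians were 0.08, 0.00069 and -0.04. Other forkhead genes, 25 tested of 40 listed, had medians of 0.02, 0.24 and 0.0047. Of their values 12 of 150 (8.0%) were under 0.05 unadjusted, and the 1 call was FOXL1, a forkhead factor of mesenchymal cells. It averaged 2.89 ± 0.790 CPM in Bottom10 negative and 0.801 ± 0.0577 CPM in Top10 negative libraries (SD, n = 3 each), a log2 fold change of 1.85 ± 0.42 with an adjusted p of 0.0222 by edgeR, and DESeq2 called it too. GATA factors and their partners, 12 tested of 15, had 0 calls by edgeR or DESeq2 and 12 of 72 values (16.7%) at an unadjusted p under 0.05, with medians of -0.02, -0.06 and 0.08. AURKA, BIRC5, SRC and FBXL18, listed as substrates or regulator of FBXL7, had 0 calls by edgeR or DESeq2 and 0 of 24 values under 0.05 unadjusted, with medians of 0.15, 0.05 and 0.0034. The other phosphoglucomutases, 4 genes, likewise had 0 calls by either tool and 0 of 24 values under 0.05 unadjusted, with medians of 0.03, 0.03 and 0.0073. Of the dystrophin complex and actin linkers, 18 tested of 22, edgeR called 0, with 7 of 108 values (6.48%) under 0.05 unadjusted and medians of -0.10, 0.29 and 0.06, and DESeq2 called SGCD in the crossing of the negative sort.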

How the data were processed

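Raw counts of reads per gene symbol were deposited by the authors, 1 file for each of 30 libraries. Per the submitters' processing notes STAR, HTSeq, DESeq and the build hg19 were used; their versions, the strand setting and the annotation were not given in sources used here. Rows that name no gene held 22.1 to 31.8% of reads and were left out of library sizes. Libraries of one group were compared and none duplicated another (chi-square per degree of freedom at least 11.6).

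Genes were filtered with edgeR's filter (minimum count 10, minimum total 15), scaled with TMM and fitted by quasi-likelihood in edgeR 4.0.16 under R 4.3.3, with the 10 groups in a single model and Benjamini-Hochberg adjustment over 15381 genes at 0.05. Of 18 comparisons of groups, 6 were tested for the 4 genes and 12 described. The SE is the log2 fold change divided by the square root of F, and log levels used a prior count of 2. The fit was run on simulated counts with known changes in Bottom10 positive over Bottom10 negative. It called 21 of 97 changes of 2-fold and 70 of 99 of 4-fold, with 9 false calls among 100. A change of 2-fold or less can thus be missed often. An exact permutation of 3 against 3 libraries cannot give a p below 0.1, so tests rest on the model.

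The 4 genes and all lists were chosen with earlier results of these data known. Named genes were the 4, ITGB4, the genes most and least like each, list genes that were called, their paralogs and the 3 tested neighbours on either side. Replicate numbers were not used in the main fit and entered only as blocks among the alternatives. They were counted as pairs where same-numbered libraries of 2 groups correlated above 0.1 for all 3 numbers after group means were removed. This held for the Top10 (0.314, 0.709 and 0.791), Bottom10 (0.278, 0.550 and 0.589) and presorted sorts (0.435, 0.199 and 0.280). Among described comparisons it held for Bottom10 over Top10 in both sorts and for Bottom5 negative over Parental negative (0.590, 0.379 and 0.415 in that pair). It did not hold in the parental sort (-0.13, 0.27 and -0.45) or in Bottom10 negative over Bottom5 negative (0.20, -0.28 and 0.55). The block in all 10 groups includes these groups. The labels state no pairing. Alternatives were DESeq2 1.42.0, RLE factors, no filter, replicate blocks, only the compared groups, leaving out the 6 libraries apart and leaving out each library. Blocks that leave out a replicate number or hold the presorted groups alone were chosen after seeing the data. The result of one further list of genes is not reported here.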

Additional observations from a re-analysis of the deposited data

How the results depend on the processing

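Of 323 values of the 24 tested differences under alternatives, 301 kept direction and side of the threshold, 4 passed it and 18 changed sign; of 607 values of the 48 described differences, 597 moved by less than the replicate SD and 10 by more. The replicate block in the Top10 and Bottom10 groups gave calls for FBXL7 in the Top10 sort (1.44) and PGM5 in the Bottom10 sort (1.602; 1.78 without replicate number 3), and DESeq2 one for FBXL7 (1.45); it changed no other call of the 4 genes. PGM5 in the presorted sort, -0.03, became 0.019 without the filter, 0.0092 with only the compared groups and 0.14 with a replicate block in the presorted groups. Without the 6 libraries apart, ZFPM2 became -0.080 in the presorted sort, -1.57 in Top5 positive over Parental positive and -0.70 in Top10 positive over Top5 positive. The cause was not tested.

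Leaving out 1 library moved the presorted sort difference between -0.17 and 0.30 for FOXP1, -0.63 and 0.86 for PGM5 (0.86 without Presorted negative replicate 1) and -0.081 and 0.35 for ZFPM2. It moved the Bottom10 sort difference between -0.088 and 0.24 for FBXL7 (-0.12 to 0.26 with the block), 1.34 and 1.97 for PGM5 and -0.0031 and 0.31 for ZFPM2 (-0.034 to 0.28 with the block, and 0.32 without the 6 libraries apart), FBXL7 between -0.44 and 0.11 in Bottom10 negative over Bottom5 negative, and PGM5 between -0.19 and 0.69 in Bottom10 positive over Presorted positive. Among described values, Bottom10 negative over Top10 negative ran from 3.36 to 3.77 for FOXP1 and 6.28 to 7.19 for PGM5, and with the block from 3.24 to 3.85 and from 5.96 (7.28 without replicate number 1) to 7.33, Presorted negative over Parental negative from 1.67 to 2.86 for PGM5, and Top10 negative over Parental negative from -6.19 to -5.29 for PGM5.

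Genes called ranged from 0 to 55 in the Top10 sort (2 in the fit reported, 35 with the block), 0 to 121 in the Bottom10 sort (0; 121 with the block), 0 to 2 in the presorted sort (0), 0 to 95 in Bottom10 negative over Bottom5 negative (18; 95 by DESeq2), 3 to 112 in Bottom10 negative over Presorted negative (28; 112 by DESeq2), 2 to 136 in Bottom10 positive over Presorted positive (32; 136 by DESeq2), 1 to 77 in the parental sort (9; 77 by DESeq2), and 91 to 1932 and 31 to 1130 in the crossing comparisons (205 and 145; 1355 and 1130 with the block). At counts of 0 to 7 per library, PGM5 in the Top10 groups is limited by depth.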
